A study of Mus musculus with 20 samples.

Results

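The amino acid response is described here through 9 genes, ATF4, DDIT3, TRIB3, CHAC1, SESN2, ASNS, PSAT1, PHGDH and FGF21, chosen by symbol, ignoring case, in the human and the mouse gene table. All 9 were found among 60607 human and 55335 mouse gene entries, and 7 in each table passed the filter on low values (a mean of at least 1 TPM, a length-scaled share of the transcripts of a library that adds up to 1000000), 5 of them the same in both. The rule used symbols alone and no measured value. The livers came from 8 humanized and 12 wild type (WT) mice given an adenovirus that carries an shRNA against HuR (HuR KD) or the control virus LacZ. Humanized mice were TK-NOG mice, immune-deficient NOG mice whose thymidine kinase transgene is driven by a mouse albumin promoter. At 8 to 9 weeks of age they received ganciclovir (25 mg/kg), which kills cells that carry the kinase, and later 1000000 cryopreserved primary human hepatocytes. They were used 8 to 12 weeks after transplantation, where serum human albumin was above 0.5 mg/ml, and they still hold mouse liver cells, whose genes the human table does not list. WT mice were male C57BL/6, bought at 8 weeks and housed for 10 to 14 days. The dose was 2000000000 pfu of either virus, and livers were collected 7 days later, when the animals had fasted for 4 h. The groups were HuR KD (4 humanized, 6 WT) and LacZ (4 humanized, 6 WT), and each species received an shRNA written for its own HuR.

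A shortage of amino acids leaves tRNAs uncharged, the kinase GCN2 then phosphorylates the initiation factor eIF2, and general translation slows while the mRNA of ATF4 is translated better. ATF4 is a bZIP transcription factor that pairs with C/EBP proteins and raises genes for amino acid synthesis, transport and tRNA charging, and the stress genes DDIT3, TRIB3 and CHAC1. Because much of the control of ATF4 lies in translation, the level of its mRNA is not a measure of its activity. In liver the same route reaches FGF21, a hormone that the organ releases during fasting and protein shortage.

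HuR is the RNA-binding protein encoded by ELAVL1. Its mRNA was lower with HuR KD in both sets, by 0.59 on the log2 scale in humanized (ELAVL1, adjusted p = 0.214 from limma) and 0.83 in WT livers (Elavl1, adjusted p = 0.00105). Libraries held 2670469 to 20302454 reads on human genes and 1423985 to 44668272 on mouse genes, recovered from the steps of the TPM. In each set a pair of livers stood apart. Humanized HuR KD 4 and LacZ 2 correlated with each other at 0.965, against at most 0.931 for any other pair, and mitochondrially encoded RNA took 51.8 and 51.7% of their TPM against 29.0 to 38.5% in the other humanized livers. They were also the deepest humanized libraries, with 20302454 and 19891555 reads against at most 8342241 in the others. Leaving them out therefore drops the livers with the most reads, and the part of depth in their likeness was not tested. WT LacZ 2 was the library of 1423985 reads, and WT HuR KD 6, with 12960373, correlated with the others at 0.908 to 0.961. Hepatocyte markers summed to 46533 to 95084 TPM in humanized and 72979 to 92291 TPM in WT livers.

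The DNA letters by which C/EBP and ATF4 pairs are usually recognised, TGATGNAA (any base at N), were looked for on both strands of RefSeq promoters of the mouse members, from 250 bases before to 50 bases after each gene's start (GRCm38.p6). The motif and the search were chosen after results on these genes were known. They were present in the windows of 4 of the 9 members, shown because these are the letters through which the response is read; 30 bases are given for each, 5′ to 3′ on the strand on which the motif (in capitals) reads.
Asns, chr6:7693214-7693243, minus strand: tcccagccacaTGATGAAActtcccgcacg
Chac1, chr2:119351038-119351067, minus strand: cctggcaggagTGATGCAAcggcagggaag
Fgf21, chr7:45615611-45615640, plus strand: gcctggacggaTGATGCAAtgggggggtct
Trib3, chr2:152344028-152344057, plus strand: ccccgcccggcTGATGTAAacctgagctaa
Counted from the RefSeq starts on which the windows are built, to the first base of the motif on the strand of the gene, the match lies 23 bases upstream in Asns, 193 in Chac1 and 139 in Fgf21, and at base 15 of the transcribed part in Trib3. It reads along the gene in Asns and against it in the other three. Asns (chr6:7675169-7693254), Fgf21 (chr7:45613886-45615490) and Trib3 (chr2:152337422-152344032) lie on the minus strand and Chac1 (chr2:119351229-119354381) on the plus strand in GENCODE M21 on GRCm38. The GENCODE start is the same as the RefSeq start for Fgf21 only, and counted from it the match lies inside Asns, at base 23, and upstream of Trib3 and Chac1, by 14 and 180 bases. Of all 32851 promoter windows, 1304 (3.97%) held a match, and the windows of Atf4, Ddit3, Sesn2, Psat1 and Phgdh held none.

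ATF4 mRNA was the most abundant member in the control livers of both species. In humanized LacZ livers it was at 99.5 ± 18.9 TPM (SD, n = 4), and in WT LacZ livers Atf4 was at 87.2 ± 11.6 TPM (SD, n = 6). TPM are scaled by gene length, so genes can be ordered within a table, but each table was normalised on its own, and values of the human and the mouse gene are only set side by side. In humanized LacZ livers the order after ATF4 was PSAT1 (93.1 TPM), TRIB3 (20.9), PHGDH (13.4), FGF21 (10.4), DDIT3 (8.85) and CHAC1 (1.13). ATF4 and PSAT1 overlapped in range, as did each neighbour from TRIB3 through PHGDH and FGF21 to DDIT3, whereas PSAT1 lay above TRIB3 and DDIT3 above CHAC1 in all 4 livers without overlap. In WT LacZ livers the order after Atf4 was Asns (21.0 TPM), Fgf21 (17.2), Ddit3 (14.3), Sesn2 (8.56), Trib3 (8.22), Chac1 (0.98), Psat1 (0.35) and Phgdh (0.197). There Atf4 lay above Asns and Trib3 above Chac1 in all 6 livers without overlap, and all other neighbours overlapped.

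**Figure D1:**
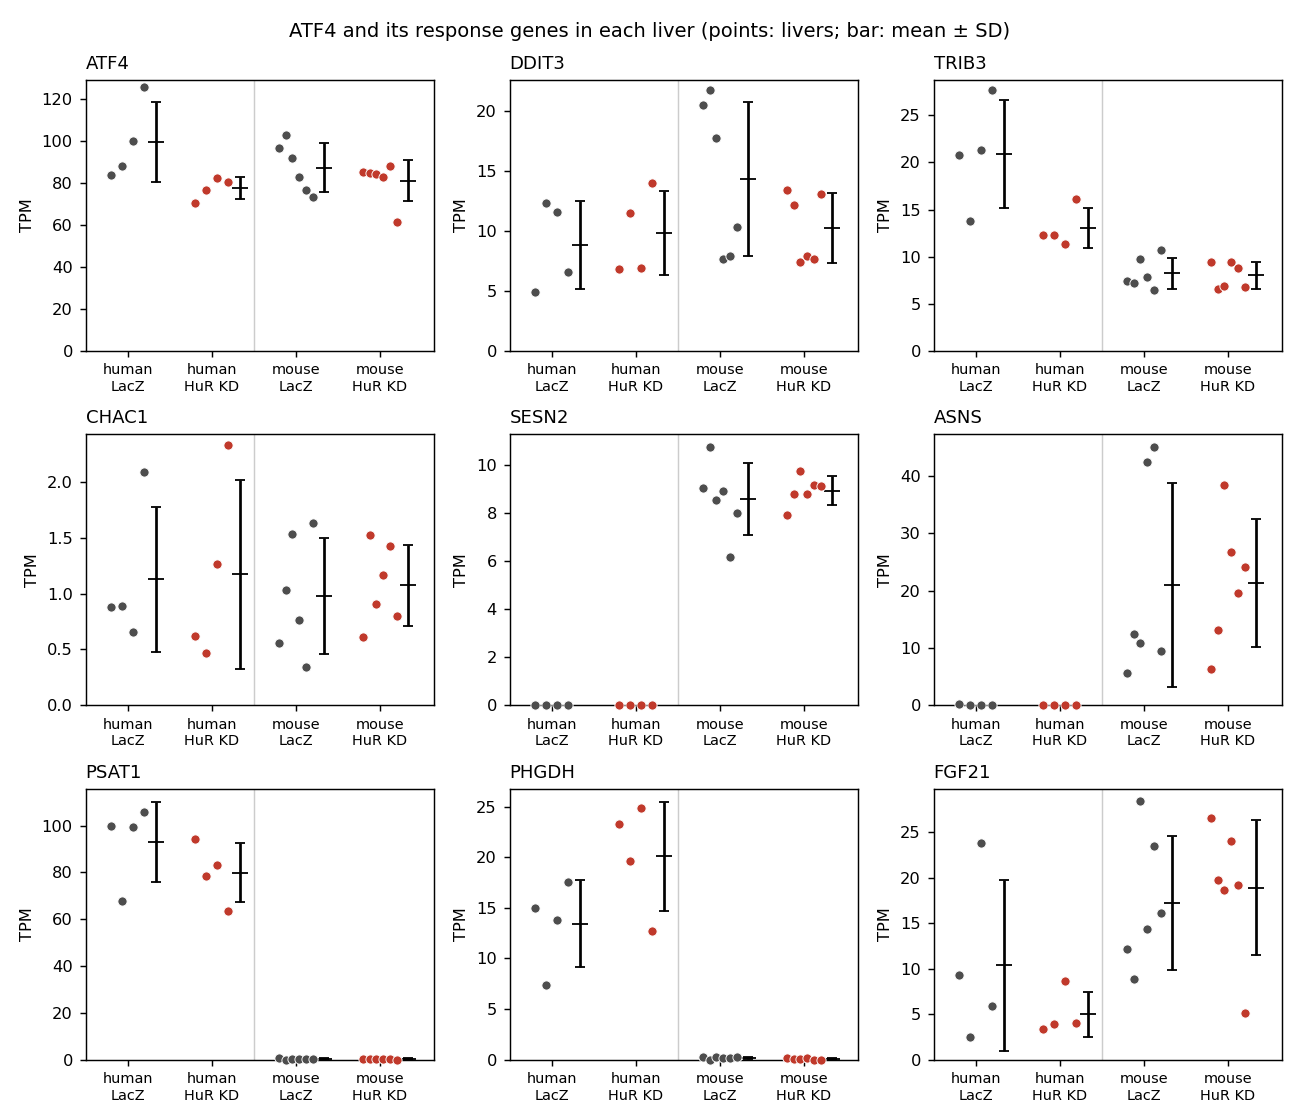
TPM (vertical axes, each from 0) of the 9 members in every liver, for human genes in humanized livers (left of each panel) and mouse genes in WT livers (right). Points are livers in LacZ (grey) and HuR KD (red), and bars give the mean ± SD, left out for human SESN2 and ASNS; PSAT1 and PHGDH lie at 63.7 to 106 and 7.40 to 24.9 TPM on the human side and at or under 0.649 and 0.286 TPM on the mouse side.

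The enzymes of serine synthesis were at far higher values in the human than in the mouse table. PHGDH takes the entry step from 3-phosphoglycerate and PSAT1 the transamination that follows. PSAT1 was at 63.7 to 106 TPM in the 8 humanized livers and Psat1 at 0 to 0.649 TPM, on 0 to 39 reads, in the 12 WT livers. PHGDH was at 7.40 to 24.9 TPM and Phgdh at 0 to 0.286 TPM, on 0 to 11 reads. In the other direction, ASNS, which makes asparagine from aspartate, was listed at 0 to 0.21 TPM in humanized livers, and Asns at 5.59 to 45.0 TPM in WT livers. SESN2, a leucine-binding inhibitor of mTORC1, was listed at 0 in all 8 humanized livers and at 6.15 to 10.7 TPM in WT livers. The human values of ASNS and SESN2 are not read as absence. The human table also lists at 0, in every humanized liver, genes that every cell uses, such as POLR2A, EEF1G, YWHAE and RPS25 (examples chosen after their values were seen), and 192 of 7625 protein-coding symbols whose mouse gene averaged at least 5 TPM were at 0 in all 8 livers (2.52%).

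HuR KD was compared with LacZ in humanized livers by limma on log2(TPM + 1), with a gene called at an unadjusted p under 0.05, the rule of the study. TRIB3 fell, ATF4 was lower in every HuR KD liver without being called, and PHGDH was the member with the largest value in the other direction. Of the 7 members past the filter 1 was called (11.5% of all genes tested were) and 0 after Benjamini-Hochberg adjustment (0.212% of all genes). Without LacZ 2 the count was 3, with ATF4 and FGF21 added, in a fit that called 1958 of all 12766 genes. The median log2 fold change of the 7 was −0.21 against −0.05 over all genes tested.

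TRIB3 (ENSG00000101255.11) encodes a pseudokinase that ATF4 induces and that binds ATF4 and the kinase AKT. It was at 12.3, 12.3, 11.3 and 16.2 TPM in HuR KD livers 1 to 4 and at 20.8, 13.8, 21.3 and 27.7 TPM in LacZ livers 1 to 4. HuR KD livers 1, 2 and 3 lay below all LacZ livers, and the groups overlapped through the pair of livers that stood apart, HuR KD 4 and LacZ 2. The means, 13.02 ± 2.14 and 20.9 ± 5.70 TPM (SD, n = 4 each), put the HuR KD level at 62.3% of LacZ. The log2 fold change was −0.62 (standard error 0.21, 95% interval −1.09 to −0.14, adjusted p = 0.301 from limma). The two-sided exact permutation p was 0.0571, where 4 livers against 4 allow no p under 0.0286. Without HuR KD 4 and LacZ 2 the log2 fold change was −0.89 (adjusted p = 0.0476 from limma). This alternative was chosen after seeing the data, and 15.7% of all genes were called in it, 1.34% after adjustment. With voom on the recovered reads the log2 fold change was −0.47 and the call was lost (adjusted p = 0.494).

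ATF4 mRNA (ENSG00000128272.14) was at 70.4, 76.7, 82.1 and 80.2 TPM in HuR KD livers and at 83.9, 88.0, 100 and 126 TPM in LacZ livers. The groups did not overlap, as in 7.16% of all genes tested, and the exact permutation p was 0.0286, the smallest possible. The log2 fold change of −0.34 (standard error 0.15, 95% interval −0.69 to 0.001, adjusted p = 0.436 from limma) missed the threshold of the call. The nearest livers were HuR KD 3 and LacZ 1, and without LacZ 4, the highest, the value was −0.22. It was called in 6 of the 18 alternatives, which ran from −0.42 to −0.22.

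PHGDH (ENSG00000092621.12) was at 23.2, 19.6, 24.9 and 12.7 TPM with HuR KD and at 14.98, 7.40, 13.8 and 17.6 TPM with LacZ. HuR KD livers 1 to 3 lay above all LacZ livers and HuR KD 4 lay below 3 of them. The log2 fold change was 0.57 (95% interval −0.07 to 1.20, adjusted p = 0.494 from limma, exact permutation p = 0.143), which was not called. It was called without HuR KD 4 and LacZ 2 (0.52, adjusted p = 0.184) and under all 3 other scalings of the libraries that were tried (0.61 to 0.65), with voom (0.69), without HuR KD 4 (0.76) and without LacZ 4 (0.71). Without LacZ 2 it was 0.33 and not called (adjusted p = 0.555). PSAT1 (ENSG00000135069.14) was at 94.5, 78.6, 83.0 and 63.7 TPM with HuR KD and 99.8, 67.6, 99.2 and 106 TPM with LacZ, a log2 fold change of −0.21 (95% interval −0.62 to 0.20, adjusted p = 0.726). The lowest PSAT1 and PHGDH values of each group were those of the pair of livers that stood apart.

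FGF21 (ENSG00000105550.10) spanned 9.55-fold over the humanized livers. It was at 3.32, 3.95, 8.64 and 4.07 TPM with HuR KD and at 9.33, 2.50, 23.8 and 5.90 TPM with LacZ. All HuR KD values lay within the LacZ range, and the log2 fold change of −0.64 had a 95% interval from −1.83 to 0.55 (adjusted p = 0.708). It was −1.09 and called without LacZ 2 (adjusted p = 0.288) and −0.15 without LacZ 3, the highest liver. DDIT3 encodes CHOP, a bZIP factor of prolonged stress. It was at 6.87, 11.5, 6.94 and 14.004 TPM with HuR KD and 4.92, 12.3, 11.6 and 6.57 TPM with LacZ (log2 fold change 0.16, 95% interval −0.55 to 0.87). CHAC1, an enzyme that degrades glutathione, was at 0.6252, 0.472, 1.26 and 2.33 TPM with HuR KD and 0.878, 0.888, 0.659 and 2.09 TPM with LacZ. These values rest on 2 to 53 reads, and the log2 fold change of 0.00 (95% interval −0.79 to 0.79) does not exclude a change of up to 0.79 in either direction. That limit is on log2(TPM + 1), which understates the change in TPM of a gene this low, so larger changes in TPM are not excluded.

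**Figure D2:**
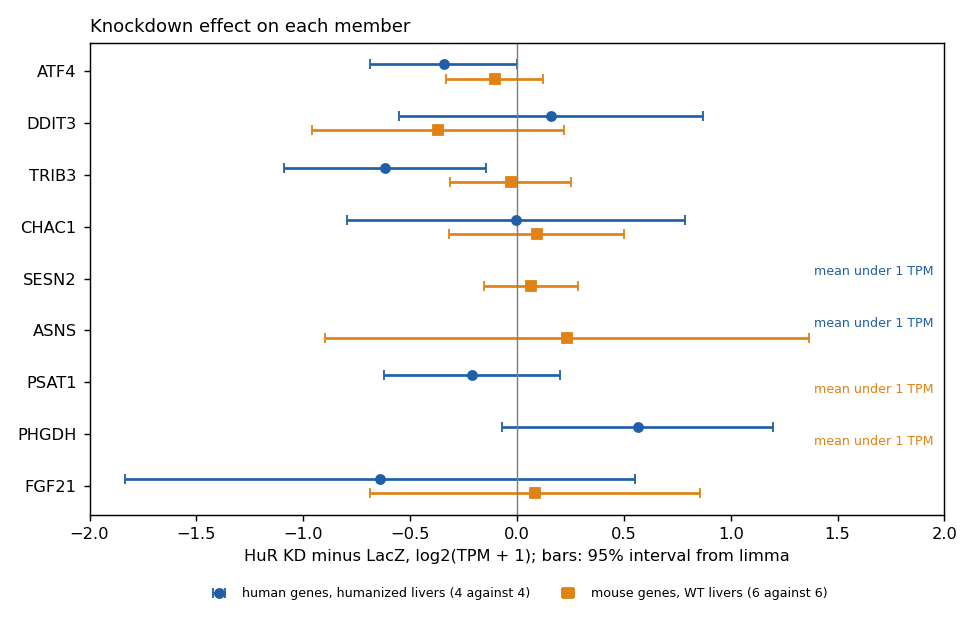
Log2 fold change of each member, HuR KD minus LacZ on log2(TPM + 1), with 95% limma intervals, for human genes (blue circles) and mouse genes (orange squares); members with a mean under 1 TPM are marked. The interval of human TRIB3, −1.09 to −0.14, is the only one of 14 that leaves out 0.

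In the same comparison of WT livers 0 of the 7 members past the filter were called at an unadjusted p under 0.05 (16.0% of all genes tested were), 0 after adjustment (0.888% of all genes), and 0 had groups that did not overlap (2.49% of all genes). The median log2 fold change of the 7 was 0.07 against 0.03 over all genes. The lowest, median and highest values of Atf4 were 61.3, 84.6 and 88.0 TPM with HuR KD and 73.0, 87.2 and 103 TPM with LacZ. The log2 fold change was −0.10 with a 95% interval of −0.33 to 0.12. Without WT HuR KD 6 and LacZ 2 it was 0.02. Trib3 was at 6.56, 7.87 and 9.48 TPM with HuR KD and 6.42, 7.60 and 10.8 TPM with LacZ, a log2 fold change of −0.03 with a 95% interval of −0.31 to 0.25. Sesn2 was at 7.93, 8.96 and 9.73 TPM with HuR KD and 6.15, 8.73 and 10.7 TPM with LacZ, a log2 fold change of 0.07 with an interval of −0.15 to 0.29. In each of these mouse genes the groups overlapped, and the intervals exclude a change of 0.5 on the log2 scale in either direction.

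The remaining mouse members left wider intervals. Ddit3 was at 7.38, 10.1 and 13.4 TPM with HuR KD and 7.67, 14.02 and 21.8 TPM with LacZ (log2 fold change −0.37, 95% interval −0.96 to 0.22, adjusted p = 0.564). Its 3 highest livers were LacZ 1, 2 and 3, and its 3 other LacZ livers lay within the HuR KD range. Ddit3 is listed under 2 gene entries at overlapping positions of chromosome 10 (127290774 to 127296288 and 127290829 to 127293753, plus strand, GRCm38), the shorter at 0 in every liver, so that reads in their shared part may not have been counted; Sesn2 is annotated as overlapping another locus too. Asns was at 6.27, 21.9 and 38.4 TPM with HuR KD and 5.59, 11.7 and 45.0 TPM with LacZ (log2 fold change 0.23, 95% interval −0.90 to 1.36, adjusted p = 0.872). Fgf21 was at 5.14, 19.5 and 26.5 TPM with HuR KD and 8.91, 15.2 and 28.4 TPM with LacZ (0.08, 95% interval −0.69 to 0.86). Chac1 was at 0.613 to 1.53 TPM with HuR KD and 0.343 to 1.63 TPM with LacZ, on 1 to 39 reads (0.09, 95% interval −0.32 to 0.50). For Asns, Fgf21 and Chac1 each group reached into the range of the other, and none was called. Psat1 and Phgdh stayed under the filter. Phgdh was at 0 to 0.159 TPM with HuR KD and 0 to 0.286 TPM with LacZ (exact permutation p = 0.0519), and a fit without the filter called it (adjusted p = 0.44 from limma) on at most 11 reads a liver.

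Whether the knockdown effects differed between the sets was tested by the interaction in a joint limma fit over 8202 genes with the same symbol, in which 19.7% of all pairs passed an unadjusted p of 0.05 and 5.01% passed after adjustment. Of the 5 members past the filter in both sets, TRIB3 passed the unadjusted threshold. Its effect in humanized livers minus that in WT livers was −0.59 on the log2 scale (95% interval −1.07 to −0.10, adjusted p = 0.157). Without both livers of each set that stood apart the difference was −0.87 (adjusted p = 0.0103), and without humanized LacZ 4 it was −0.44 and no longer passed (adjusted p = 0.318). The difference was −0.24 (−0.61 to 0.13) for ATF4, 0.53 (−0.35 to 1.41) for DDIT3, −0.09 (−0.79 to 0.60) for CHAC1 and −0.72 (−2.02 to 0.57) for FGF21, with adjusted p of 0.509 to 0.921. Without both livers of each set that stood apart the differences of ATF4 and FGF21 passed the unadjusted threshold, at −0.44 and −1.27 (adjusted p = 0.0774 and 0.0785). This alternative, given above for TRIB3 too, was chosen after seeing the data. The share of all pairs that passed in it is not given here, so these passes cannot be set against it. Host, shRNA sequence, read length (75 and 50 bases) and species differ together between the sets and cannot be told apart.

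The members also varied from liver to liver within groups. Across the 12 WT livers Asns spanned 8.06-fold, Fgf21 5.53-fold, Chac1 4.77-fold and Ddit3 2.95-fold, whereas Atf4, Trib3 and Sesn2 spanned 1.68-fold, 1.68-fold and 1.74-fold. Asns was at 42.4 and 45.0 TPM in LacZ 4 and 5 and at 5.59 to 12.4 TPM in the other 4 LacZ livers. Ddit3 was at 7.67 and 7.90 TPM in LacZ 4 and 5 and at 10.3 to 21.8 TPM in the other 4. In HuR KD livers Asns ran from 6.27 TPM in liver 1, where Ddit3 was highest (13.4 TPM), to 38.4 TPM in liver 3, where Ddit3 was lowest (7.38 TPM).

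Correlations of log2(TPM + 1), after each group's mean was subtracted, were computed for all 21 pairs of members in each set, a choice made after seeing the data. For Asns and Ddit3 Pearson's r was −0.77 over 12 livers (permutation p = 0.01, adjusted p = 0.211 over 21 pairs) and Spearman's rho was −0.72 (permutation p = 0.0235, adjusted p = 0.401). Within HuR KD livers r was −0.69 and within LacZ livers −0.80, and without LacZ 4 and 5, the livers farthest from the median of Asns, it was −0.59. In humanized livers the closest pair was PSAT1 and PHGDH, with r = 0.96 over 8 livers (exact permutation p = 0.00521, adjusted p = 0.109) and rho = 0.81 (exact permutation p = 0.0312, adjusted p = 0.559). Within HuR KD livers r was 0.91 and within LacZ livers 0.99. Without HuR KD 4 and LacZ 2, the livers farthest from the median of PSAT1, r was 0.59. Leaving out the farthest livers narrows the range, so this fall cannot show how far the relation rested on them. No pair of members passed after adjustment in either set.

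**Figure D3:**
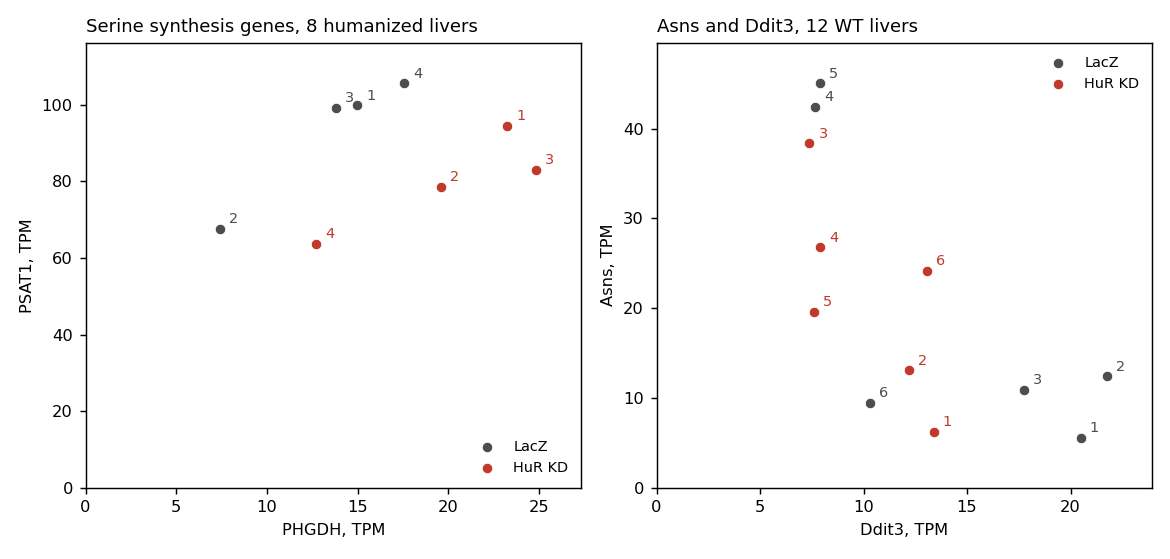
TPM of PSAT1 against PHGDH in the 8 humanized livers (left) and of Asns against Ddit3 in the 12 WT livers (right), both axes linear from 0; points are livers, grey for LacZ and red for HuR KD, numbered by replicate. HuR KD 4 and LacZ 2 lie lowest of their groups on both axes at left, and the 3 livers with over 30 TPM of Asns have under 8 TPM of Ddit3 at right.

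The 3 genes whose pattern among livers was most like that of a variable member, by the same correlation over all genes past the filter, were Psmd9 (r = 0.95), Apoa4 (0.93) and Accs (0.93) for Asns in 12 WT livers. Psmd9 is a proteasome assembly chaperone and Apoa4 an apolipoprotein, which ran from 420 to 3552 TPM among the WT livers. Without LacZ 4 and 5 these r were 0.92, 0.89 and 0.86. For Fgf21 in WT livers they were Card6 (r = 0.93), 6030400A10Rik (0.93) and Creb3l3 (0.92), the last a membrane-bound bZIP factor of liver and intestine. Without HuR KD 6 and LacZ 2 they were 0.72, 0.68 and 0.75. For FGF21 in 8 humanized livers they were CAPZA1 (0.99), PTPRG (0.99) and LDLRAD4 (0.97), and without LacZ 2 and 3 they were 0.98, 0.96 and 0.89. These r were the highest among all genes past the filter and are given as a description. The values of all genes come from the same libraries, and no p is attached.

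The other genes around ATF4 were read from 9 lists of 139 genes. In humanized livers 10 of the 120 tested were called, 2 higher (3.60% of all genes were called higher) and 8 lower (7.87% of all genes), and 0 after adjustment. Over all genes 458 were called higher and 1003 lower, a split that became 817 and 835 when the libraries were scaled by median-of-ratios factors. With these factors the lists gave 6 higher and 7 lower of 119 tested, so the surplus of lower calls depended on the scaling. SLC38A1, a neutral amino acid transporter, was at 0.528 ± 0.0166 TPM with HuR KD and 3.60 ± 1.24 TPM with LacZ (SD, n = 4 each), a log2 fold change of −1.55 (limma adjusted p = 0.0528). CREB3L3 rose from 14.7 ± 3.01 to 26.9 ± 4.29 TPM (log2 fold change 0.84, limma adjusted p = 0.111). CEBPG, a dimer partner of ATF4, fell from 39.1 ± 10.7 to 23.4 ± 5.05 TPM (−0.69, limma adjusted p = 0.316). Both subunits of the enzyme that starts glutathione synthesis fell, GCLM by 0.65 and GCLC by 0.33 on the log2 scale, as did EIF2B2, a subunit of the exchange factor for eIF2, by 0.45. In the list of targets and sensors of IRE1 and ATF6, the other arms of the endoplasmic reticulum stress response, 3 of 16 were lower (DNAJC3 by 0.63, SEL1L by 0.32 and EDEM1 by 0.30) and CRELD2 was higher by 0.35. SEL1L, EDEM1 and CRELD2 lay close to the threshold, and over the alternatives 1 to 7 genes of this list were lower, with 6 without LacZ 2 and 1 without HuR KD 1, 2 or 4 or LacZ 3 or 4. Amino acid synthesis and one-carbon enzymes (0 of 15), cytosolic aminoacyl-tRNA synthetases (0 of 18) and brakes on mTORC1 (0 of 12) gave no call. Of the 18 synthetases 15 had log2 fold changes below 0 (median −0.13). Without HuR KD 4, 4 of the 15 amino acid enzymes and 2 of the 12 brakes were called lower (1069 of all 12766 genes were). Of the 18 synthetases 4 were called lower without LacZ 2 (1434 of 12766 genes) and 3 without HuR KD 3 (1094 of 12691 genes). Without HuR KD 4 and LacZ 2 the lists gave 27 calls in place of 10, where 2011 of 12826 genes were called. With mitochondrially encoded genes left out they gave 5 (1094 of 14613 genes). Without LacZ 2 alone they gave 20 (1958 of 12766 genes). Without HuR KD 1 or without HuR KD 2 they gave 6 (1141 of 12747 and 1098 of 12816 genes).

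Among markers of other cell types, the 1 of 10 macrophage markers tested was not called (summed level 6.58 to 67.4 TPM with HuR KD and 18.5 to 143 TPM with LacZ). The exceptions were calls as lower without HuR KD 4, without LacZ 1 and without both HuR KD 4 and LacZ 2. Of the cholangiocyte markers, 2 of 4 tested were lower with HuR KD in humanized livers (summed level of 6 markers 6.02 to 29.4 TPM with HuR KD and 12.9 to 45.5 TPM with LacZ), and 5 of 10 macrophage markers were at 0 in all 8 livers, CLEC4F, MARCO, C1QA, C1QB and VSIG4. Summed B cell, neutrophil, endothelial and stellate markers reached at most 1.98 TPM, and T and NK cell markers 4.86 TPM, with 6 of 10 at 0 (CD3E, CD3D, CD8A, NKG7, GZMA and GZMB). No cholangiocyte marker was called without any one of HuR KD 1, 2 and 3 and LacZ 2 and 3, and 3 of 4 were called without HuR KD 4. The human table lists no mouse genes, so these sums do not measure mouse cells of these types in humanized livers. The part of other cell types in the changes of TRIB3 and the listed genes was not tested. In bulk tissue fewer cells of a type and less RNA per cell cannot be told apart.

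In WT livers, where no member was called, 39 of 127 listed genes were called, 20 higher (9.09% of all genes were called higher) and 19 lower (6.94% of all genes), and 2 passed after adjustment. With median-of-ratios factors 13 were higher and 20 lower. Cytosolic aminoacyl-tRNA synthetases, which charge tRNAs, were called higher for 6 of 20 and lower for 0, with 19 of 20 log2 fold changes above 0 and a median of 0.10 against 0.03 over all genes. Farsb rose from 34.2 ± 2.92 to 42.7 ± 4.02 TPM (SD, n = 6 each; log2 fold change 0.31, limma adjusted p = 0.0761), Sars by 0.22, Iars by 0.28 and Qars by 0.16 on the log2 scale. Amino acid synthesis and one-carbon enzymes were called higher for 6 of 16 and lower for 1. Mthfd1 rose from 140 ± 9.60 to 178 ± 18.9 TPM (0.34, adjusted p = 0.0532) and the mitochondrial serine hydroxymethyltransferase Shmt2 from 111 ± 4.29 to 139 ± 19.6 TPM (0.32, adjusted p = 0.0834), with groups that did not overlap for either gene. Cbs, which starts transsulfuration, rose by 0.35, and the alanine aminotransferase Gpt2 fell by 0.34.

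The largest count among the WT lists was in targets and sensors of IRE1 and ATF6, of which 12 of 17 were lower and 0 higher (median −0.38). Herpud1, a factor of protein degradation at the endoplasmic reticulum, fell from 614 ± 158 to 368 ± 22.9 TPM (SD, n = 6 each; log2 fold change −0.70, limma adjusted p = 0.0454), and Pdia4 fell by 0.61, Calr by 0.38 and Dnajc3 by 0.30. Slc38a4, an amino acid transporter of hepatocytes, fell from 1057 ± 96.9 to 738 ± 49.5 TPM (−0.51, limma adjusted p = 0.00928), and Slc38a3 rose by 0.29. Of 17 ATF4 partners and related factors 1 was called, Cebpb, which fell from 192 ± 34.5 to 134 ± 30.8 TPM (−0.53, limma adjusted p = 0.134). Of 16 eIF2 genes 3 were higher (Eif2b5 by 0.23, Eif2s3x by 0.28, Eif2ak1 by 0.13) and Eif2ak2, the kinase PKR, was lower by 0.40. In the other lists Deptor, Gclm and Chac2 were lower by 0.27, 0.29 and 0.39, and Rptor, Oplah, Fgfr4 and Fgfr3 were higher by 0.30, 0.18, 0.18 and 0.31. In the list that holds Fgfr4 and Fgfr3 no higher call was left in 8 of the 12 fits without 1 liver (each of HuR KD 1, 2, 5 and 6 and LacZ 3, 4, 5 and 6), nor without both HuR KD 6 and LacZ 2. Over the alternatives the count of lowered IRE1 and ATF6 genes ran from 8 to 13 and that of raised synthetases from 4 to 10, the highest without both HuR KD 6 and LacZ 2. In that fit 3499 of all 15082 genes were called, against 2418 of 15090 in the main fit. Calls over all genes ran from 805 to 1294 lower and from 1021 to 2323 higher over the alternatives.

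**Figure D4:**
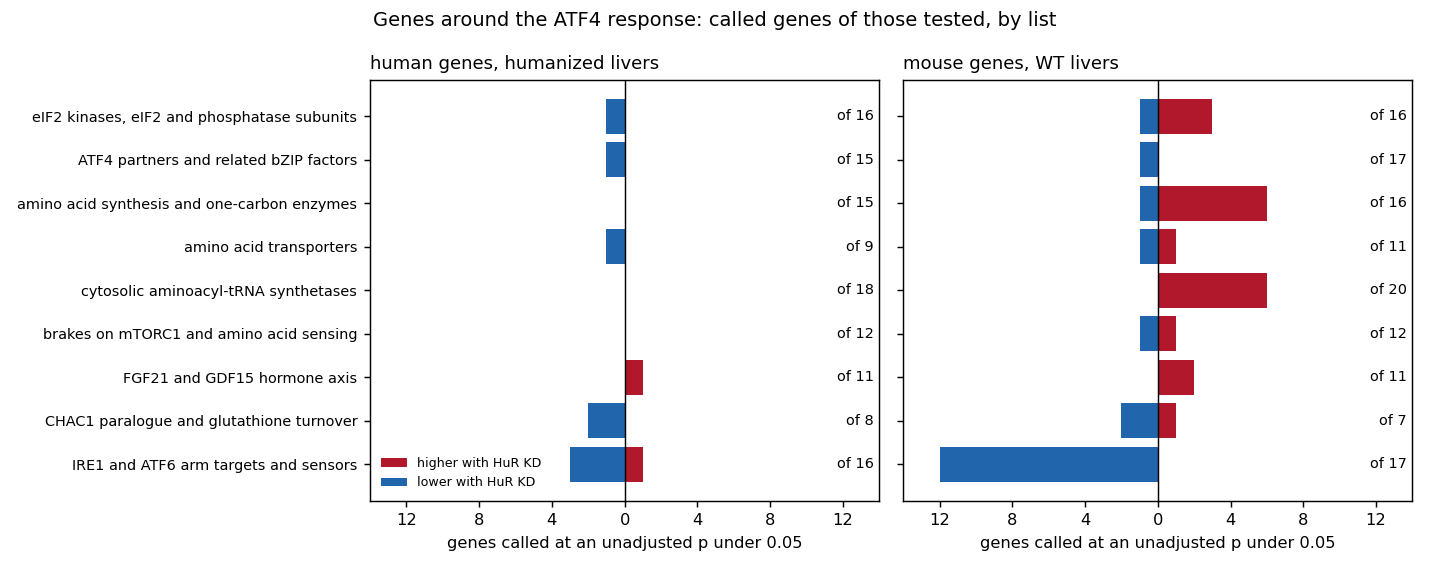
Number of genes called higher (red, right of 0) and lower (blue, left of 0) with HuR KD at an unadjusted p under 0.05 in each of 9 lists around the ATF4 response, with the number tested at the right edge. In WT livers 12 of 17 IRE1 and ATF6 genes were lower and 6 of 20 synthetases and 6 of 16 amino acid synthesis enzymes were higher; in humanized livers no list gave more than 3 lower.

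In WT livers 5 of 10 macrophage markers (summed level 532 to 951 TPM with HuR KD, 715 to 983 TPM with LacZ), 2 of 7 T and NK cell markers (9.96 to 18.9 and 13.4 to 26.7 TPM) and 3 of 7 stellate markers (89.6 to 137 and 113 to 148 TPM) were also lower with HuR KD, and 0 of 10 macrophage markers were at 0. Their part in the counts of the lists was not tested. Every hepatocyte marker tested, 9 of the 9 found, gave no call.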

How the data were processed

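RNA sequencing of 20 livers was used. Per the study's methods the authors made stranded total RNA libraries, trimmed reads with cutadapt (Trim Galore in the submitters' processing notes), aligned them with HISAT2 to GENCODE M23, or to a combined human v32 and mouse M23 index for humanized livers, and counted them with featureCounts. They deposited TPM per gene, which sum to 1000000 in each library; the formula and gene lengths are not given in the sources used here. The paper states that its humanized mice carried hepatocytes of only a small number of donors. The donor of each liver is not given, so humanized livers may share donors. Nothing else says how the livers relate beyond group and number. The p-values treat livers as independent and measure the spread between them.

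Members and lists were chosen with earlier results of these data known. Each set was fitted alone with limma 3.58.1 (lmFit, eBayes with trend) in R 4.3.3 on log2(TPM + 1), without further scaling, over genes whose TPM averaged 1 or more. This covered 12738 human and 15090 mouse genes, and p-values were adjusted over all of them. A fold change on this scale understates the change of low genes. Single genes were also compared by two-sided exact permutation over 70 humanized and 924 WT groupings. Correlations of WT livers used 100000 permutations within groups (seed 3), and those of humanized livers all 576. Read counts behind the TPM were recovered (Python 3.11.15; numpy 2.4.6; pandas 2.3.3) as the whole numbers, within 0.01, whose steps match the TPM of a gene in 4 or more libraries. All 18702 human and 25110 mouse genes with enough values were solved. The depth sets the precision of low TPM, and counts carry counting error only. Scripts were tested on simulated data. Named genes are the members, up to 4 called genes with the smallest p from each list and set, the 3 genes most like ASNS and FGF21, and ELAVL1. Mouse positions come from GENCODE M21 (GRCm38) and promoters from RefSeq (GRCm38.p6); human positions and promoters were not used here. Figures were drawn with matplotlib 3.10.9.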

Additional observations from a re-analysis of the deposited data

Results flagged for a closer look

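Among 34 groups of one member in one set, 8 held a liver set apart from the others by Dixon's criterion. The groups share livers and some hold ties at 0, so this count cannot be set against a rate given by chance. The first 4 concern human genes. ASNS was listed at 0.21 TPM in humanized LacZ 1 and at 0 in the other 3 LacZ livers, where any value above 0 would have been set apart. CHAC1 was at 2.09 TPM in LacZ 4 against 0.659 to 0.888 TPM in the others. PSAT1 was at 67.6 TPM in LacZ 2, one of the pair of livers that stood apart, against 99.2 to 106 TPM. FGF21 was at 8.64 TPM in HuR KD 3 against 3.32 to 4.07 TPM. The rest concern mouse genes in the livers with the fewest reads. WT HuR KD 6 was lowest for Atf4 (61.3 TPM against 82.6 to 88.0), Fgf21 (5.14 TPM against 18.6 to 26.5) and Psat1 (0.0883 TPM against 0.381 to 0.525). Phgdh was at 0 in WT LacZ 2 against 0.181 to 0.286 TPM, on 8 to 11 reads, in the other LacZ livers. WT LacZ 2 held 1423985 reads in all and the other LacZ livers at least 33076774. The part of depth in these values was not tested.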

How the results depend on the processing

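The count of 1 called member in humanized livers became 2 with log2(TPM + 0.1), no filter, median-of-ratios factors, quantile normalization, mitochondrially encoded genes left out or the replicate block, 3 without both livers that stood apart, and 1 to 3 without 1 liver. The added gene was ATF4 with the pseudocount, the filter and the block, and PHGDH with the other scalings. With voom the count stayed at 1, but the called gene was PHGDH and no longer TRIB3. Calls over all genes were 1464 of 12738 with log2(TPM + 0.1) and 1869 of 30819 with no filter. They were 1652 of 12677 with median-of-ratios factors and 1645 of 12738 with quantile normalization. With mitochondrially encoded genes left out they were 1094 of 14613, and with the replicate block 1401 of 12738. Without both livers that stood apart they were 2011 of 12826, and without 1 liver 1098 to 1958. In WT livers the count of called members became 1 with no filter (3083 of 31265 genes) and stayed 0 without any 1 liver. Replicate numbers were not taken to pair the livers. Same-numbered livers deviated together (r over 0.1) in 1 of 4 humanized and 2 of 6 WT pairs. With so few livers this cannot decide whether the numbers stand for a pairing. The replicate block changed no other call of a member. The sign of human CHAC1 turned with median-of-ratios factors (0.038), quantile normalization (0.19), mitochondrially encoded genes left out (0.027) and voom (0.57), and ran from −0.11 to 0.19 without 1 liver; its interaction ran from −0.20 to 0.10. WT ATF4 was 0.023 without both livers that stood apart. Without 1 liver DDIT3 in humanized livers ran from −0.058 to 0.33, and in WT livers ASNS ran from −0.036 to 0.53, TRIB3 from −0.088 to 0.045, CHAC1 from −0.012 to 0.16, SESN2 from −0.014 to 0.13 and FGF21 from −0.073 to 0.40; none of these values was called in any of them. The log2 fold change of TRIB3 in humanized livers ran from −0.89 to −0.47 over all alternatives (adjusted p = 0.0476 to 0.627). Calls in the other lists in humanized livers, 10, ran from 5 to 27, and calls over all human genes, 1461, from 931 to 2011. The cause of these shifts was not tested. With a mean of at least 5 TPM required, CHAC1 gave no value. CHAC1, Psat1 and Phgdh rest on few reads.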
